A study of Drosophila melanogaster with 8 samples.

Results

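The cytoplasmic ribosomal protein genes of Drosophila were taken as all genes whose symbol starts with RpL or RpS followed by a digit, and 88 of the 17684 genes placed on X, 4 and both arms of chromosomes 2 and 3 met this rule, 50 RpL genes for the large ribosomal subunit and 38 RpS genes for the small one. All 88 are protein-coding. Binding of Dpn, a bHLH transcription factor of the Hes type that marks neuroblasts (NBs), was measured by DamID in third-instar larval brains in 4 groups of 2 replicates. For the pan-NB profile, Dam-Dpn from a FlyORF-TaDa transgene was compared with Dam-only, both expressed in all NBs by wor-GAL4. For the medulla NB profile, Dpn-GFP from a BAC under endogenous control was compared with the w1118 background, which has no GFP tag, and in both a Dam joined to a GFP nanobody (NanoDam) was expressed by ey-GAL4, the eyR16F10-GAL4 line of the study, which is also active in medulla neurons. All 4 groups carried tub-GAL80ts, which holds GAL4 back until larvae are warmed, and every replicate pooled brains.

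Ribosomal proteins and rRNA make up the 2 subunits that translate every mRNA, and the genes for these proteins are short, strongly transcribed and spread over the chromosomes, with many of them carrying snoRNA genes in their introns. Loss of 1 copy of many of them gives the Minute phenotype of slow growth and thin bristles, so their dose limits growth. Larval NBs regrow after each division and need a high rate of ribosome production. Dpn keeps NBs in the stem cell state as a target of Notch signalling, and DamID reports where a Dam fusion has been near GATC sites, not whether a gene is transcribed more or less.

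The pan-NB list held 4282 peaks on these arms and the medulla NB list 3474, each deposited as 1 list for the averaged replicates at an FDR below 0.01. Each peak has a position, a score and an FDR. The score has no stated scale, so it is given as a rank within its own list, with rank 1 the highest score. With 1 averaged list per profile, no value below has a replicate error and no test was made. The depth behind a peak is unknown. Driver, cell population and technique differ together between the lists and cannot be told apart.

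A peak within 1 kb was found at 43 of the 88 ribosomal protein genes in the pan-NB list (48.9%), where 26.7% of all protein-coding genes and 26.3% of all genes had one. In the medulla NB list it was found at 29 members (33.0%), against 23.1% of protein-coding genes and 22.2% of all genes. Both lists had a peak at 22 members (25%), against 16.5% of protein-coding genes and 15.8% of all genes. Neither list had one at 38 members (43.2%), against 66.7% of protein-coding genes and 67.4% of all genes. The pan-NB list alone bound 21 members (23.9%), against 10.2% of protein-coding genes and 10.5% of all genes, and the medulla NB list alone bound 7 (7.95%), against 6.62% and 6.31%. Protein-coding genes in the length range of the middle 50% of the members were bound less often, at 19.9% by the pan-NB list, 16.6% by the medulla NB list and 10.9% by both, with 9.08% bound by the pan-NB list alone, 5.73% by the medulla NB list alone and 74.3% by neither. All 88 members were kept beside these genes of similar length, also members outside that length range. The members therefore stood above each background share in the pan-NB list, and by a smaller margin in the medulla NB list.

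**Figure D1:**
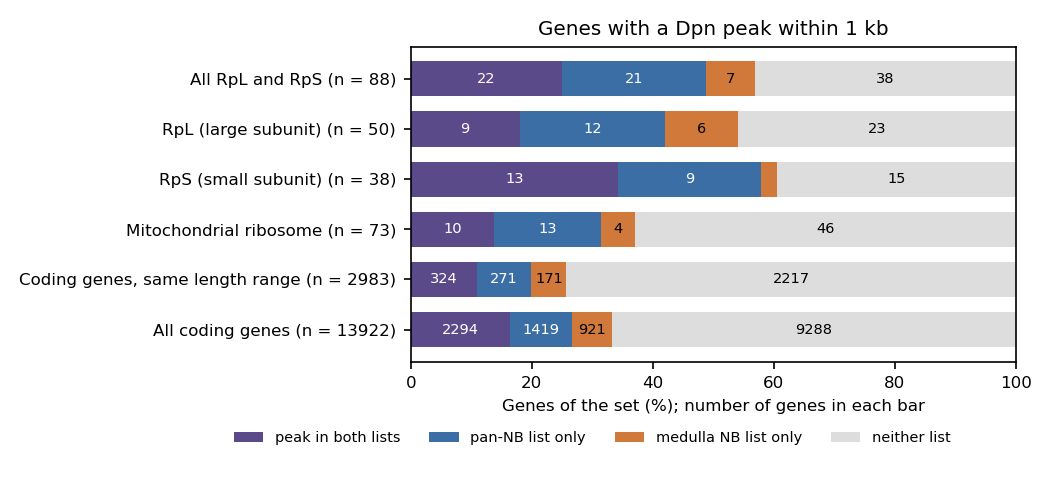
Share of genes (x axis, %) with a Dpn peak within 1 kb in both lists, in the pan-NB list only, in the medulla NB list only or in neither, with the number of genes printed in the bars. Of the 88 RpL and RpS genes 38 had no peak, against 9288 of 13922 coding genes, and the RpS genes had 1 member with a medulla NB peak only.

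The subunits differed more in the pan-NB list than in the medulla NB list. Of the 38 RpS genes, 22 (57.9%) were bound in the pan-NB list, 14 (36.8%) in that of medulla NBs, against 21 (42%) and 15 (30%) of the 50 RpL genes. Both lists bound 13 RpS genes (34.2%) and 9 RpL genes (18%). For all protein-coding genes the shares were 26.7% in the pan-NB list, 23.1% in the medulla NB list and 16.5% in both. The RpL share in both lists was thus near that of all protein-coding genes. Of the 7 members bound in the medulla NB list alone, 6 were RpL genes, namely RpL7, RpL9, RpL13, RpL13A, RpL22 and RpL35, and the other was RpS10a. The difference between subunits was not tested.

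Few of these peaks scored high. The highest-scoring peak at a member stood at rank 99 of the pan-NB peaks and at rank 174 of the medulla NB peaks, and most other peaks ranked low. Over the 47 pan-NB peaks at members the median rank was 3318 of 4282, against 2277 over the 3327 peaks at any protein-coding gene and 2909.5 over the 534 peaks at coding genes of similar length. Of these 47 peaks, 27 (57.4%) lay in the lowest-scoring 25% of the list and 3 (6.38%) in the highest-scoring 25%. At coding genes of similar length these shares were 39.7% and 10.3%. In the medulla NB list the median rank over 32 peaks was 2232.5 of 3474, against 1848 at protein-coding genes and 2232 at coding genes of similar length. By median rank the members were thus like other short genes there, but fewer of their peaks had an FDR below 0.001. These were 15 of the 32 (46.9%), against 59.3% at coding genes of similar length and 68.5% at all protein-coding genes. Of the 32 peaks, 13 (40.6%) lay in the lowest-scoring 25% and 3 (9.38%) in the highest. The shares at coding genes of similar length were near these, 36.2% and 12.9%.

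The share of members bound, and its margin over all protein-coding genes, depended on this strength. With the higher-scoring 50% of each list, 9 members (10.2%) were bound by pan-NB peaks and 8 (9.09%) by medulla NB peaks, where all protein-coding genes gave 10.6% and 9.17% and coding genes of similar length 5.40% and 4.93%. At an FDR below 0.001 the pan-NB list bound 31 members (35.2%), against 19.9% of all protein-coding genes and 13.9% of those of similar length. The medulla NB list bound 14 (15.9%), against 15.1% and 9.82%. The margin over all protein-coding genes was thus under 1 percentage point in the medulla NB list at the stricter FDR and absent in both lists among the higher-scoring peaks, while the members stood above coding genes of similar length in each case. RpL4, RpL8, RpS2, RpS9, RpS19b, RpS28b and RpS28-like had a peak in the upper 50% of both lists, RpL29 and RpL39 in that of the pan-NB list alone and RpS28a in that of the medulla NB list alone.

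**Figure D2:**
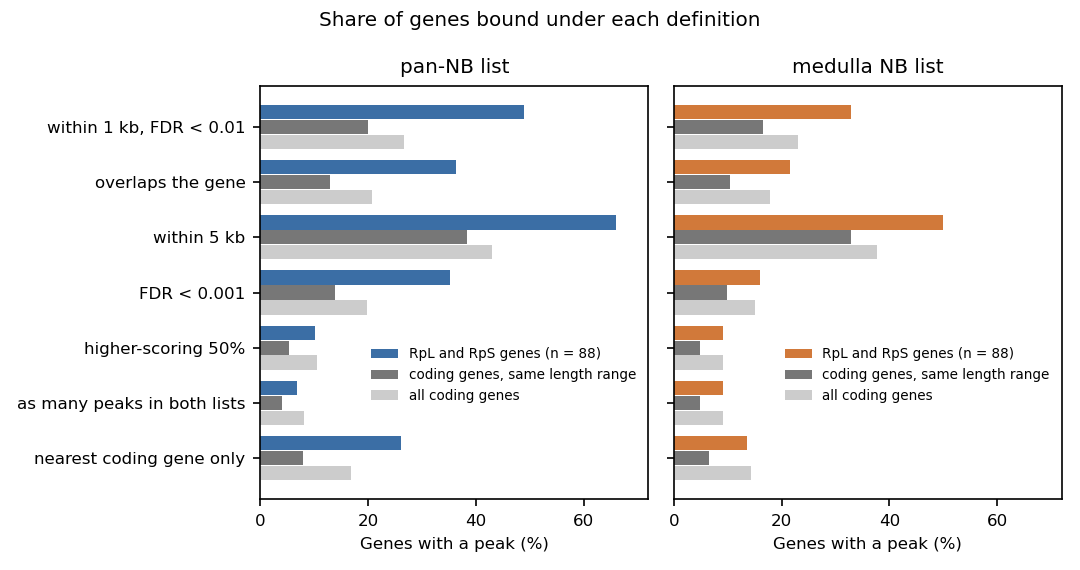
Share of genes with a peak (x axis, %) under 7 definitions of a bound gene, for the 88 RpL and RpS genes (coloured bars), coding genes in their length range (dark grey bars) and all coding genes (light grey bars), in each list. For peaks within 1 kb the pan-NB shares are 48.9%, 19.9% and 26.7%, and for the higher-scoring 50% of peaks they are 10.2%, 5.40% and 10.6%.

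The members with the strongest peaks were RpL4, RpS9, RpS19b, RpS2 and RpS28b in the pan-NB list and RpL4, RpS9, RpL8, RpS19b and RpS28a in the medulla NB list. RpL4, whose protein lines the exit tunnel of the large subunit, had a pan-NB peak on 3R from 27924968 to 27925531 with a score of 7.68 (rank 99) and a medulla NB peak from 27924968 to 27925779 with a score of 9.77 (rank 174). Both began 80 bp outside RpL4 and had their midpoint in its neighbour mino, an acyltransferase gene of lipid synthesis. At RpS9, an early-assembling protein of the small subunit, the pan-NB peak on 3L from 9508595 to 9509340 stood at rank 943, and the medulla NB peak from 9507899 to 9509340 had rank 302. These ended 453 bp outside RpS9, with their midpoints in CG3408. RpL8, close to the peptidyl transferase centre, had a medulla NB peak of rank 829 on 3L from 2589396 to 2590777 and a pan-NB peak of rank 1892 with the same start, 513 bp from the gene and centred in dos, an adaptor gene of receptor tyrosine kinase signalling.

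RpS2 had 2 peaks in each list. Its pan-NB peaks on 2L, from 9894801 to 9895573 and from 9897811 to 9898388, had ranks 2175 and 1127, and the gene lay between them. Of its medulla NB peaks, ranks 1564 and 2902, the second ran from 9896904 to 9898388 and covered 50.4% of the gene. RpS19b had a pan-NB peak of rank 1036 on 3R from 23933902 to 23934807 and a medulla NB peak of rank 1160 from 23934306 to 23935181, both centred in CG5854. The RpS28b peak ran from 9552590 to 9553785 on X in both lists, 838 bp from the gene and at rank 1532 of the pan-NB peaks and rank 1488 of the medulla NB peaks, where its FDR was 0.00807. Every peak that ranked in the highest-scoring 25% of either list at a member thus lay beside the member and not on it.

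**Figure D3:**
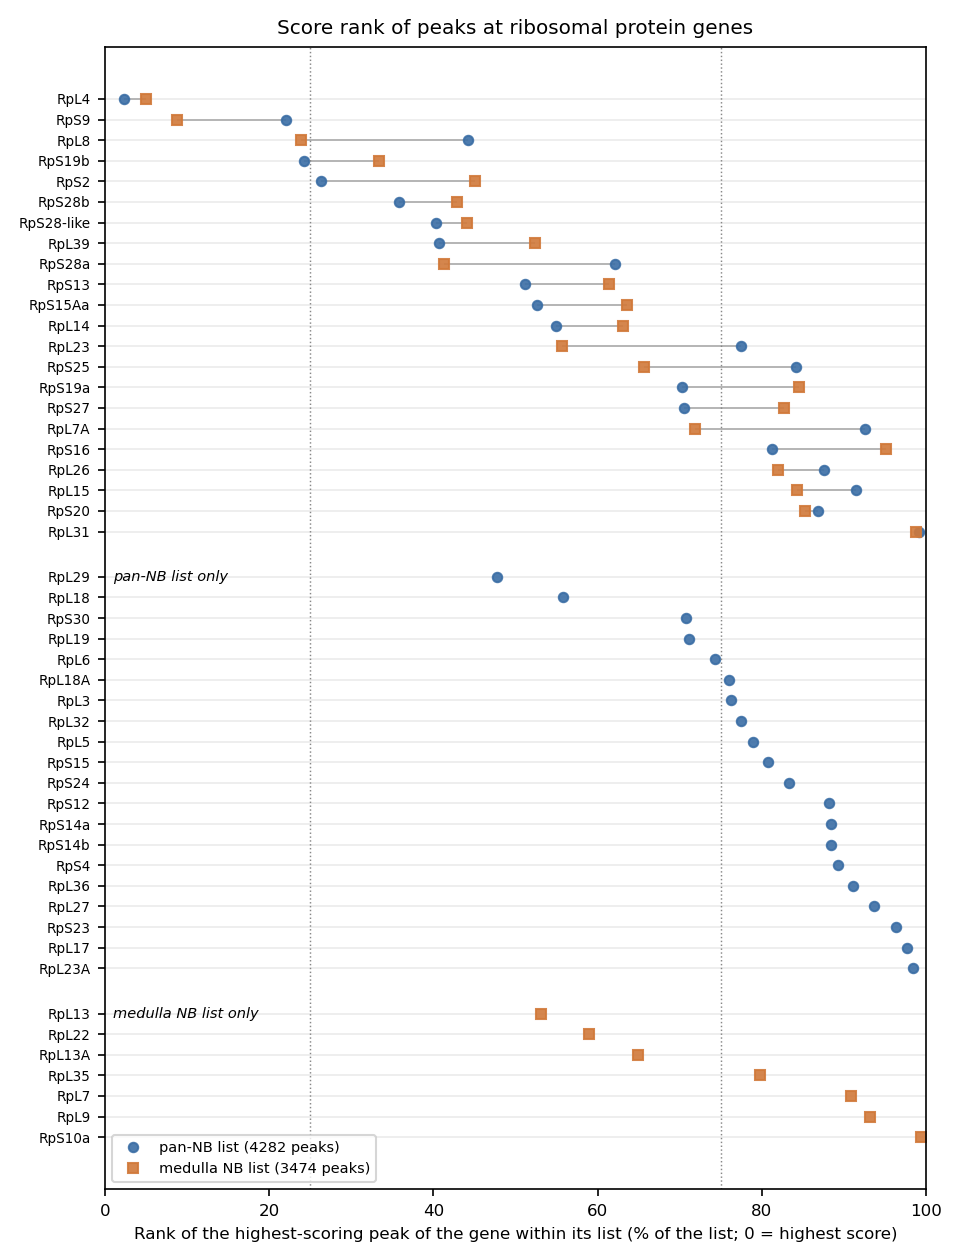
Rank of the highest-scoring peak of 49 of the 50 bound members within its list (x axis, % of the list, 0 is the highest score), for pan-NB peaks (circles) and medulla NB peaks (squares); grey lines join the 2 lists for the 22 members bound in both, and dotted lines mark 25% and 75%. RpL4 and RpS9 stand at the left, and most members bound in 1 list only stand in the right part.

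Peaks on the genes and peaks beside them differed in rank. A peak overlapped the member itself in 34 of 47 cases in the pan-NB list, with a median rank of 3417.5 and a best rank of 1724, and lay beside it in 13, with a median rank of 1892. In the medulla NB list 19 peaks overlapped a member, with a median rank of 2282 and a best rank of 1434, and 13 lay beside, with a median rank of 1645. Of the pan-NB peaks on a member, 70.6% were in the lowest-scoring 25% of the list, against 44.3% of the peaks on coding genes of similar length, and in the medulla NB list these shares were 47.4% and 41.3%. Peaks beside genes of similar length also ranked higher than those on them, with medians of 2409 and 3054 in the pan-NB list and of 1867 and 2434 in the medulla NB list, so that order is not particular to ribosomal protein genes. Of the 13 pan-NB peaks beside a member 12 overlapped another protein-coding gene, and all 13 in the medulla NB list did. Most peaks beside coding genes of similar length did so too, 136 of 173 in the pan-NB list and 120 of 149 in the medulla NB list.

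**Figure D4:**
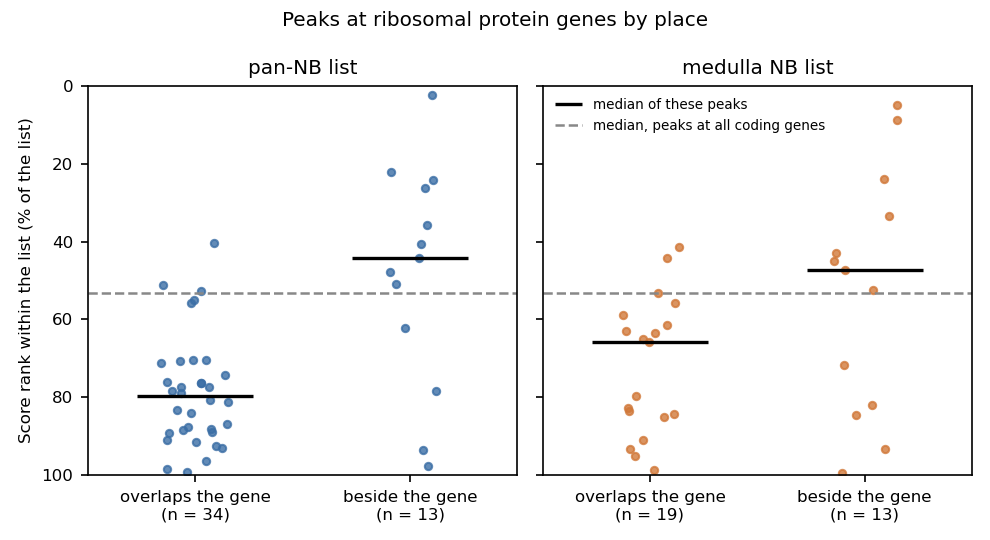
Score rank of each peak at a ribosomal protein gene (y axis, % of the list, highest scores at the top), split into peaks that overlap a member and peaks within 1 kb beside it; black bars are medians and the dashed line is the median over peaks at all coding genes. No peak on a member lies in the top 25% of its list, while 3 peaks beside members do in each list.

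The peaks on the members were broad relative to the genes. Pan-NB peaks that overlapped a member had a median width of 1962 bp, against 1577 bp for those on coding genes of similar length, and in the medulla NB list the widths were 2005 bp and 1545 bp. At least 50% of the gene was covered at 22 of the 43 members bound in the pan-NB list (51.2%), against 26.2% of bound genes of similar length, and at 12 of 29 in the medulla NB list (41.4%), against 28.7%. These member counts include genes shorter or longer than that length range. The covered share depends on gene length, so the comparison is not matched for it. The covered length, counted over the gene and 1 kb on either side, had a median of 1603 bp over members with pan-NB peaks (163 to 3245 bp) and of 1327 bp over those with medulla NB peaks (163 to 3560 bp). No member had more than 2 peaks, and 37 of 43 in the pan-NB list and 26 of 29 in the medulla NB list had 1. Bound coding genes of similar length were much the same, with 1 peak at 522 of 595 and at 450 of 495 and at most 3.

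RpL26, RpL23 and RpL14 lay whole inside peaks of both lists, and no RpS gene did. RpL26, which lies near the exit of the peptide tunnel, had the most covered length over both lists, 2588 bp under pan-NB peaks and 2983 bp under medulla NB peaks, and the peaks that spanned the whole gene ran on 3L from 18898570 to 18901157 (rank 3748) and from 18898570 to 18901108 (rank 3246). RpS27, a zinc finger protein of the small subunit, had 1702 bp under its pan-NB peak and 3560 bp under its medulla NB peak, with a medulla NB peak of rank 2872 on 3R from 25244860 to 25248549 that covered all of it. The pan-NB peak at RpS27 had rank 3019, and the germline differentiation gene bam lies within 1 kb of both peaks. RpL23, a protein of the subunit interface, was spanned in both lists, with 3245 bp under the pan-NB peak (rank 3318) and 1767 bp under the medulla NB peak (rank 1935). RpL14 was spanned as well, with 2124 bp and 2005 bp at ranks 2354 and 2191.

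Other members with much covered length had peaks in the lower 50% of both lists. RpS16, which contacts tRNA in the small subunit, had 2491 bp under its pan-NB peak and 2365 bp under its medulla NB peak, at ranks 3481 and 3305. In the same order, RpL31, another protein of the tunnel exit, had 2530 bp and 1327 bp at ranks 4244 and 3433. RpL15 of the large subunit had 1979 bp and 1838 bp at ranks 3918 and 2930, and RpS25, which some viral IRES elements need, had 1601 bp and 1731 bp at ranks 3602 and 2282. These genes thus count as bound in both lists on peaks of which none reached the upper 50% of its list. Over the 22 members bound in both lists, 10 had more length covered in the pan-NB list, 6 in the medulla NB list and 6 the same in both.

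**Figure D5:**
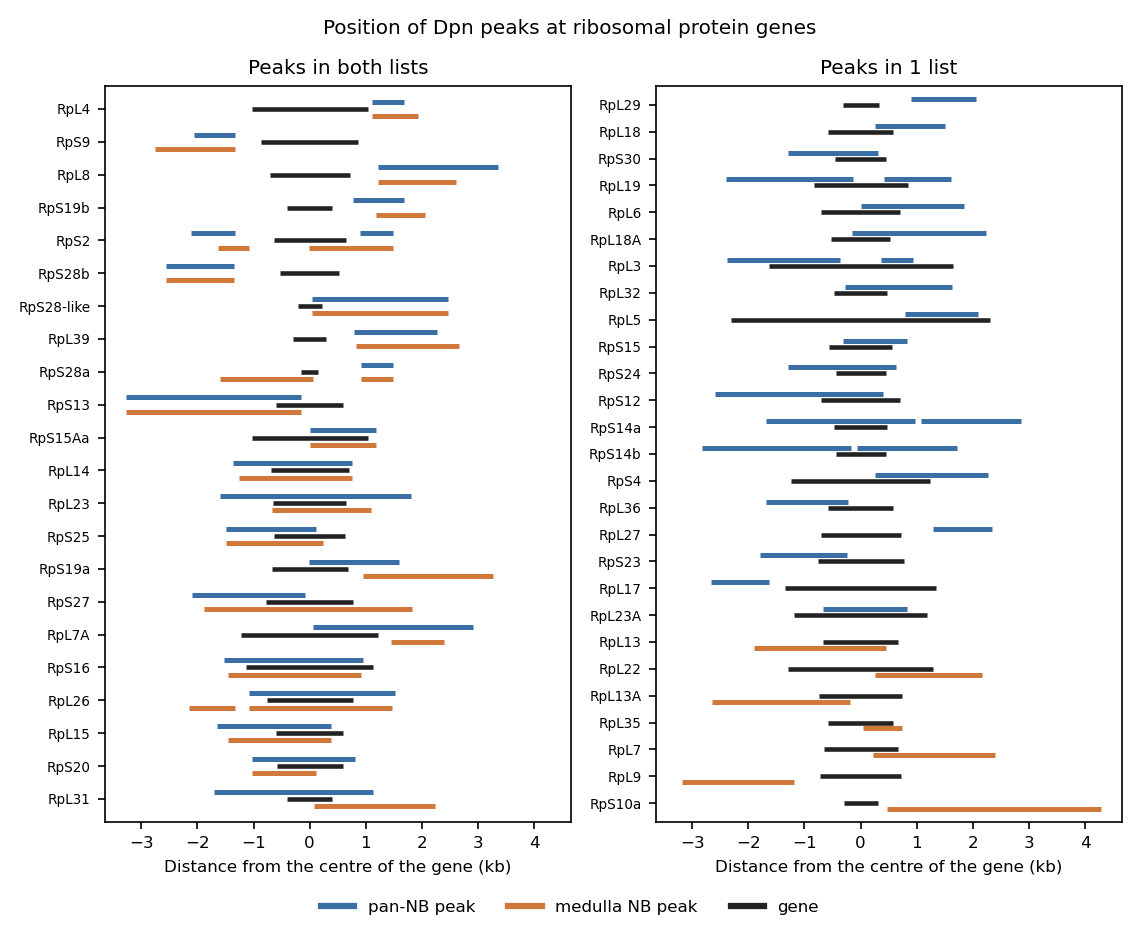
Peaks at 49 of the 50 bound members drawn to scale around the centre of each gene (x axis, kb, increasing along the arm; strand is not used), with pan-NB peaks in blue above the gene, medulla NB peaks in orange below it and the gene in black. The left panel has the 22 members bound in both lists, of which RpL26, RpL14 and RpL23 lie whole inside peaks of both and RpL4, RpS9 and RpL8 lie beside them; the right panel has 27 of the 28 bound in 1 list.

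Where both lists bound a member, at least 1 pair of their peaks overlapped. Each of the 22 members had at least 1 pan-NB peak that overlapped a medulla NB peak, and none of the peaks at members bound in 1 list overlapped a peak of the other list, even beyond 1 kb of the gene. The same counts were not made for other genes, so they set nothing apart at the members. A short gene with 1 kb on either side also leaves little room for separate peaks. Over all members 23 of 47 pan-NB peaks were shared (48.9%), against 55.1% of all pan-NB peaks, and 23 of 32 medulla NB peaks (71.9%), against 69.6% of all. Among these 23 overlapping pairs, 5 had the same first and last base in both lists, 9 had the same base at 1 end and 9 at neither. This split was not made over all shared peaks. The pairs at RpS13 (8360804 to 8363912 on 2L), RpS28-like (9437050 to 9439475 on 2L), RpS15Aa (13336671 to 13337858 on X), RpS28b and RpS28a made up the 5, and both techniques resolve binding only to fragments between GATC sites. Shared pan-NB peaks at members had a median rank of 2354 and unshared ones of 3417.5, and in the medulla NB list the medians were 2191 and 2772. Shared peaks also ranked higher at protein-coding genes in general, 1668 against 3054 in the pan-NB list and 1506.5 against 2501 in the medulla NB list.

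Among the 21 members bound in the pan-NB list alone, RpL19, which forms a bridge between the subunits, had the most covered length, 2892 bp in 2 peaks on 2R, from 24966323 to 24968583 and from 24969135 to 24970319, at ranks 3048 and 3266. RpS14a and RpS14b, adjacent copies on X, shared 2 peaks of ranks 3787 and 3981, from 7932523 to 7935181 and from 7935278 to 7937063. These covered 2840 bp and 2799 bp in the windows of the 2 genes, so this pair of genes counts for 2 members on the same peaks. RpL3, at the peptidyl transferase centre, had peaks on 3R from 11221154 to 11223158 and from 11223903 to 11224462 (ranks 3266 and 3808), with 2565 bp covered. None of these reached the upper 50% of the list, and RpL29 was the only pan-NB-only member with a peak there, from 21294985 to 21296139 on 2R (rank 2045), 581 bp from the gene.

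Of the members bound in the medulla NB list alone, RpL13 had the most covered length, 2126 bp of a peak on 2L from 9966083 to 9968438 (rank 1845). This peak also lies within 1 kb of Dref, which encodes a transcription factor of replication and growth genes, and its midpoint falls between both genes. RpL22 of the large subunit had 1899 bp on X from 764104 to 766002 (rank 2048), with no other protein-coding gene within 1 kb of the peak. RpL13A had 1555 bp on 3R from 5622556 to 5625028 (rank 2256) and RpL7 1431 bp on 2L from 10201891 to 10204047 (rank 3158). The peak at RpS10a, from 27653536 to 27657340 on 3R, had rank 3454 of 3474, did not reach RpS10a itself and had its midpoint in another coding gene, with tau, which encodes a microtubule-associated protein, and Mlc1, a myosin light chain gene, within 1 kb. The nearest pan-NB peak lay 2715 bp from RpL13, 3476 bp from RpL22, 10373 bp from RpL13A, 18036 bp from RpL7 and 271605 bp from RpS10a.

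The limit of 1 kb cut few members closely. In the pan-NB list RpL29 and RpL27 (581 bp each), RpS28a (764 bp) and RpS28b (838 bp) were the farthest inside it, and RpL35 (1026 bp), RpL12 (1068 bp) and RpS15Ab (1437 bp) the nearest outside. In the medulla NB list RpL39 (545 bp), RpS19b (776 bp) and RpS28b (838 bp) were inside, and RpL12 (1116 bp), RpL23A (1174 bp) and RpS3A (1326 bp) outside. RpL12 and RpL39 lie close together on 2R, and the same peaks (24062928 to 24064407 in the pan-NB list, 24062976 to 24064804 in the medulla NB list) fell within the limit of RpL39 and beyond that of RpL12. A further 15 members had a pan-NB peak from 1 to 5 kb away, and 30 had none within 5 kb. For the medulla NB list these counts were 15 and 44.

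The 38 members without a peak came from both subunits, 23 RpL and 15 RpS genes. They include RpL40 and RpS27A, which encode fusions with ubiquitin, RpS6, the target of S6 kinase, RpS3, RpL10 and RpL11. The pan-NB peak nearest to a member of this class lay between 1068 bp (RpL12) and 111458 bp (RpL21) away, and for RpL38, a known Minute gene, it lay 102071 bp away. By arm, a peak in either list was found at 10 of 13 members on 3L (76.9%, against 33.1% of the coding genes there), 10 of 14 on X (71.4%, against 38.1%), 13 of 23 on 3R (56.5%, against 33.8%), 10 of 19 on 2R (52.6%, against 33.2%) and 7 of 18 on 2L (38.9%, against 28.4%). Coding genes had the lowest share on 2L as well. RpS3A, the only member on chromosome 4, had none.

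In crowded regions a peak often lay near a neighbour as well. Another protein-coding gene lay within 1 kb of 79 of the 88 members, and 3 of 49 pan-NB and 2 of 32 medulla NB pairings of a member with a peak had no other coding gene within 1 kb of the peak. The midpoint of the peak was in the member in 14 pan-NB and 11 medulla NB pairings, in another coding gene in 20 and 18, and between coding genes in 15 and 3. When a peak was counted only for the coding gene nearest to its midpoint, 23 members were bound in the pan-NB list (26.1%, against 16.8% of protein-coding genes and 8.01% of those of similar length) and 12 in the medulla NB list (13.6%, against 14.4% and 6.54%). Among the neighbours under the same peaks were numb beside RpS28-like, an inhibitor of Notch that is passed to 1 daughter of the NB, dx beside RpL7A, a regulator of Notch, and Axn beside RpS28a, a component of Wnt signalling, all named after their values were seen. The lists do not show to which of 2 close genes a peak belongs.

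Genes with second copies had a lower bound share than the other members in the pan-NB list but not in the medulla NB list, which was not tested. In 12 families with more than 1 gene, 25 genes in all, 8 (32%) had a pan-NB peak, against 35 of the 63 members with a single gene (55.6%). In the medulla NB list the counts were 9 (36%) and 20 (31.7%), and both lists bound 6 (24%) and 16 (25.4%). For all protein-coding genes these shares were 26.7%, 23.1% and 16.5%, as above. In 5 families no copy had a peak, and in 4 the copies differed. RpL22 and RpL7 had a medulla NB peak and RpL22-like and RpL7-like none, RpS15Aa had a peak in both lists (ranks 2253 and 2209) and RpS15Ab none, and RpS10a had a medulla NB peak and RpS10b none. All 3 RpS28 genes and both RpS19 genes were bound in both lists. A snoRNA gene lay inside 28 members, of which 15 (53.6%) were bound in either list, and of the 60 members without one 35 (58.3%) were. Of all protein-coding genes 33.3% were bound in either list.

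Genes of related function gave shares on either side of those of the members. For all protein-coding genes the shares were 26.7% in the pan-NB list, 23.1% in the medulla NB list and 16.5% in both, as above. Of the 73 genes for mitochondrial ribosomal proteins, 23 (31.5%) were bound by pan-NB peaks, 14 (19.2%) by medulla NB peaks and 10 (13.7%) by both. Their highest-scoring peaks were at mRpL53 (rank 1064) and mRpL30 (rank 1215) in the pan-NB list and at mRpL30 (rank 939) and mRpL17 (rank 1186) in the medulla NB list. Of 6 cytoplasmic ribosome components with other names, the pan-NB list bound RpLP2 of the stalk (rank 1173) and the scaffold Rack1 (rank 4011), and the medulla NB list bound sta, the RpSA gene (rank 2930). Of 30 initiation factor genes 12 were bound in each list (40%), 9 of them in both (30%), and eIF5B, which joins the subunits, and eIF6, which keeps them apart, ranked first in both lists (eIF5B at 330 and 216, eIF6 at 1017 and 997). Among 9 elongation and release factor genes 5 (55.6%) were bound by pan-NB peaks and 4 (44.4%) by medulla NB peaks, all 4 of them in both lists, led by eRF1 (ranks 600 and 331) in both lists, with eEF2 (rank 1580) next in the pan-NB list and eEF1beta (rank 1828) next in the medulla NB list. Of 30 genes of ribosome assembly and RNA polymerase I, pan-NB peaks bound 11 (36.7%), medulla NB peaks 7 (23.3%) and both 3 (10%). Polr1D (rank 147) and Polr1E (rank 642) came first in the pan-NB list. In the medulla NB list Nop60B (rank 707) and nclb (rank 1312) did. These differences between lists of genes were not tested.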

How the data were processed

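DNA of larval brains was processed for DamID in 8 samples, 2 per group, and the authors aligned reads with damidseq_pipeline at default options, averaged replicates into 1 profile and called peaks with find_peaks. Their methods describe calling in each replicate, but the deposited lists are named as averages, so calling on the averaged profile is read from those names; tool versions and the genome build were not given in the sources used here. The deposited values per peak are a position, a peak score on no stated scale and, as text, an FDR. Averaging hides replicate differences, and a common FDR can give lists of unequal length. The 7 pan-NB peaks on Y were left out. Genes were named and placed with a RefSeq table of Release 6 that gives no strand, gene starts or sequence; the lists name no build, so gene coordinates are not printed. A gene was bound if at least 1 bp of a peak lay within 1 kb of it. The members, the 5 lists of related genes and the comparisons were chosen with earlier results of these data known. Genes named are those with the 5 highest-scoring peaks per list, the 8 with most covered length in both lists and 5 in each list alone, copies that differ in class, and 2 per related list, beside members that a class, the 1 kb limit or identical peaks single out and neighbours, chosen after their values were seen. Some genes that the rule names are not reported here by name or drawn singly, and the counts include them. Counting code was tested on simulated data. Planned distances to gene starts and promoter motifs were not analysed here. Python 3.11.15, numpy 2.4.6, pandas 2.3.3, scipy 1.17.1 and matplotlib 3.10.9 were used.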

Additional observations from a re-analysis of the deposited data

How the results depend on the processing

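No paired analysis was possible because the lists hold averaged replicates, and for the same reason no replicate could be left out; peaks near gene starts alone were not run. Counts are of 88 members with a pan-NB peak, a medulla NB peak, both or neither (43, 29, 22 and 38 as reported). Peaks overlapping the gene itself gave 19 members in the medulla NB list (21.6%, against 17.9% of coding genes) and 12 in both (13.6%, against 12.1%). Within 5 kb, 44 had a medulla NB peak (50%, against 37.6%), 37 both (42.0%, against 29.6%) and 23 neither (26.1%, against 49.1%). An FDR below 0.001 gave 14 in the medulla NB list (15.9%, against 15.1%). It gave 10 in both (11.4%, against 10.7% of coding genes and 5.97% of those of similar length). The higher-scoring 50% of each list gave 9, 8, 7 and 78. There 7.95% of members had both, against 6.82% of coding genes and 3.15% of those of similar length. Neither was found at 88.6% of members, against 87.1% and 92.8%. The 1737 highest-scoring peaks of each list gave 6, 8, 6 and 80. With these equal lists the pan-NB share of members, 6.82%, was below the 8.18% of coding genes and above the 3.99% of those of similar length, and 90.9% of members had neither, against 88.4% and 93.5%. Counting only the nearest coding gene, an alternative chosen after seeing the data, as was the length range beside each alternative, gave 23, 12, 9 and 62. Both lists then bound 10.2% of members, against 9.81% of coding genes and 3.02% of those of similar length. Neither bound 70.5%, against 78.6% and 88.5%. Without second copies 24 of 63 members had neither (38.1%, against 66.7% of coding genes). The shared percentage of pan-NB peaks at members, 48.9% as reported, was 66.7% with the higher-scoring 50%, 83.3% with as many peaks in both lists, 31.2% at an FDR below 0.001 and 33.3% (1 of 3) for peaks at no other coding gene, where that of medulla NB peaks was 50% (1 of 2). Over all pan-NB peaks it was 56.9% with the higher-scoring 50%, 61.9% with as many peaks and 51.2% at the stricter FDR. With few peaks left, the percentages at members rest on 3 to 32 pan-NB peaks. Joining peaks closer than 500 bp changed none of the 4 counts. An overlap of 50% gave 44.7% and 65.6% shared, against 50.9% and 63.5% of all peaks. The number of peaks and the averaging limit what these lists can show.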
